A study of Arabidopsis thaliana with 12 samples.

Results

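APL3 (AT4G39210) and APL4 (AT2G21590) encode large subunits of ADP-glucose pyrophosphorylase, and each was followed through 1 probe set of its own. They were chosen by gene name, as the probe sets that the platform annotation pairs with these genes and no other. They are 2 of the 22746 probe sets that are not Affymetrix controls. All 12 arrays came from whole wild-type seedlings of the Columbia ecotype, aged 3 days and raised in liquid MS medium, with 1 array per biological replicate and 3 replicates per treatment. The control received no addition, and the other groups received 0.2 µM sulfamethoxazole (SMX), 10 mM sucrose, or both at these same concentrations. SMX is a sulfonamide that blocks folate synthesis. The design asks what each compound did to the transcripts of these subunits, and what the pair did.

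ADP-glucose pyrophosphorylase makes ADP-glucose from glucose 1-phosphate and ATP in the plastid, and this step commits carbon to starch. The enzyme pairs catalytic small subunits with large subunits that tune its regulation. APL1 is the main large subunit of leaves, whereas APL3 and APL4 are associated with sink tissues such as roots and are known as genes whose transcripts sugars can raise. In a young seedling, starch forms in the root cap and in cells that receive more sugar than they use.

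APL3 was higher in seedlings given sucrose and SMX together than in any other group, and was called with neither compound alone. In the combined treatment its transcript read 1.60-fold higher than in the control (95% confidence interval 1.26 to 2.03), 1.64-fold higher than with sucrose alone (1.29 to 2.08) and 1.59-fold higher than with SMX alone (1.25 to 2.01). The rise passed the adjusted threshold against the control and against SMX, and missed it against sucrose. The test for an SMX effect that differs with and without sucrose missed it too. The calls against the control and against SMX were both lost with the spike or the actin labelling score, described below, as a covariate. APL4 was called in none of the comparisons.

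The deposited values are log2 expression values, so a difference of 1 is a doubling of signal. APL3 read 7.96, 7.58 and 7.70 in control replicates 1, 2 and 3. With SMX alone it read 7.85, 7.91 and 7.52. With sucrose alone it read 7.53, 7.86 and 7.74. These 9 arrays overlapped from group to group. The 3 arrays of the combined treatment read 8.60, 8.24 and 8.42, and the lowest of them lay 0.28 above the highest of the other 9. That placing was shared by 584 of the 22746 probe sets, or 2.57%.

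**Figure D1:**
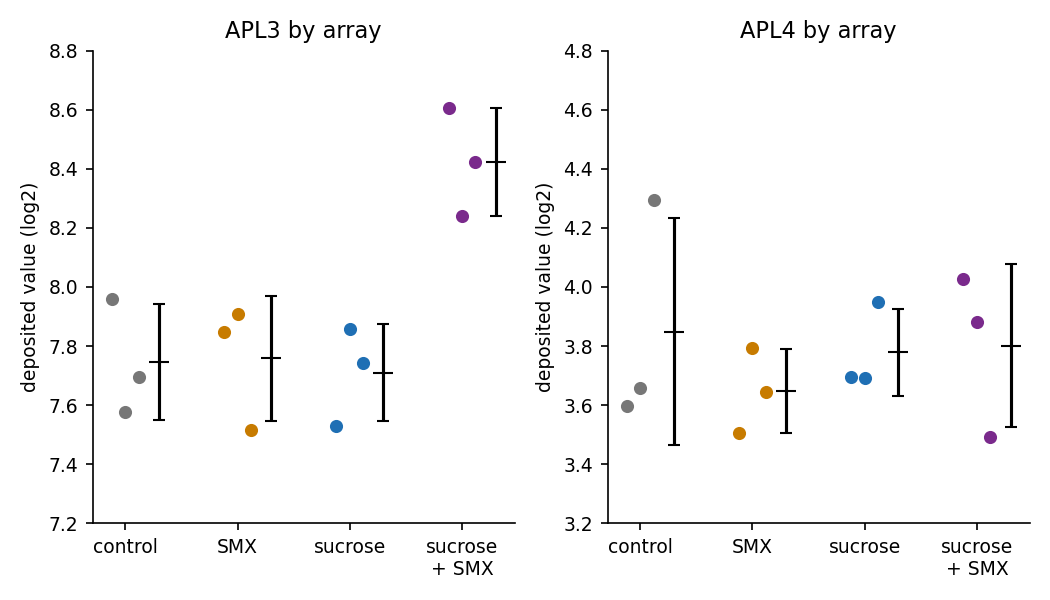
Deposited log2 values of APL3 (left) and APL4 (right) on each of the 12 arrays, with 3 points per treatment and the group mean ± SD drawn beside them as a black bar; the vertical axes start above 0 and span the same number of log2 units. The 3 APL3 points with sucrose plus SMX, at 8.24 to 8.60, sit above all others, while the APL4 groups overlap.

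The group means of APL3 were 7.74 ± 0.20 in the control, 7.76 ± 0.21 with SMX, 7.71 ± 0.17 with sucrose and 8.42 ± 0.18 with both (SD, n = 3 each). The 3 lower means lie within 0.048 of each other, less than the SD of any group, so the order is the combined treatment first and the other groups together. Had the separate differences with SMX and with sucrose simply added up, the combined mean would have been 7.72 in place of 8.42. The matching test, the interaction given below, was not called. In whole seedlings, a change in RNA per cell and a change in the share of cells that express APL3 cannot be told apart.

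Against the control, APL3 with both compounds rose by 0.68 on the log2 scale (SE 0.15; limma, Benjamini-Hochberg adjusted p = 0.0108), with all 3 treated arrays above all 3 control arrays. In this comparison 27.2% of all probe sets were called, and arrays did not overlap for 38.6%. A call here is therefore common, and APL3 ranked at 3428 of 22746 by p-value. Against SMX alone the rise was 0.66 (SE 0.15; limma, Benjamini-Hochberg adjusted p = 0.00933), in a comparison where 32.5% of probe sets were called and 45.3% did not overlap.

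Against sucrose alone the difference was 0.71 (SE 0.15), the largest of the 3, and the arrays again did not overlap. It was not called (limma, Benjamini-Hochberg adjusted p = 0.184). Only 0.189% of probe sets were called when SMX was added to sucrose, and 9.70% did not overlap. The unadjusted limma p, 0.00118, was slightly smaller than the 0.00162 found against the control with the same SE, and the adjusted values differ because the adjustment weighs each p against all others of its comparison. By that p APL3 stood at 146 of 22746, within the top 0.642%.

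The effect of SMX on APL3 was 0.013 without sucrose (95% confidence interval −0.33 to 0.35) and 0.71 with sucrose (0.37 to 1.05). The interaction, which is the second difference minus the first, was 0.70 (SE 0.21; 95% confidence interval 0.22 to 1.18). Its unadjusted limma p was 0.00986, and it did not pass after Benjamini-Hochberg adjustment (adjusted p = 0.559), in a contrast where 0.0703% of probe sets were called. A different SMX effect with and without sucrose was thus not established for APL3 at the level set for the whole array. Limma's F test across the 4 treatments did pass (F = 10.5; Benjamini-Hochberg adjusted p = 0.0146), as it did for 31% of probe sets. That call was lost without sucrose plus SMX replicate 1 (limma, Benjamini-Hochberg adjusted p = 0.0686) or replicate 3 (0.0562).

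Sucrose alone left APL3 at 0.98-fold of the control, with a 95% confidence interval of 0.77 to 1.24 (limma, Benjamini-Hochberg adjusted p = 1). This interval takes no account of the measures of RNA labelling given below. The SE of the log2 difference, 0.15 here, was 0.31 with the spike score as a covariate and 0.23 with the actin score. SMX alone gave 1.01-fold, with an interval of 0.80 to 1.28 (limma, Benjamini-Hochberg adjusted p = 1). Sucrose alone had calls for 23.5% of the array, and SMX alone for 0.0835%.

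**Figure D2:**
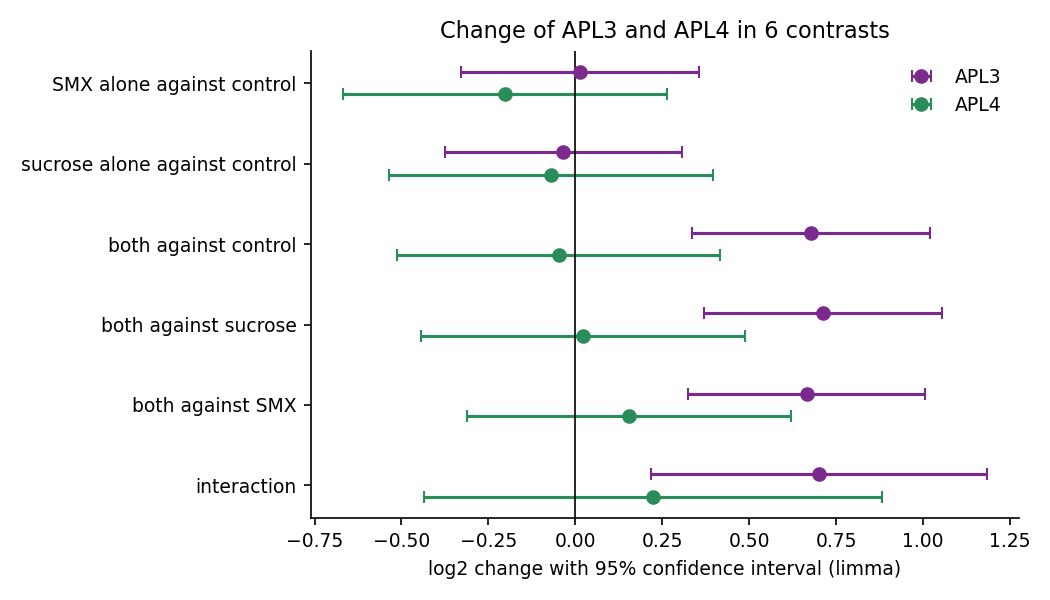
Log2 change of APL3 (purple) and APL4 (green) in 6 contrasts, with points for the limma estimate and bars for its 95% confidence interval, unadjusted for the number of probe sets. The APL3 intervals for the combined treatment lie above 0 (0.34 to 1.02 against the control), and all APL4 intervals include 0.

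APL4 read low on every array, between 3.49 and 4.29, and detection calls were not used here. The lowest value in the table is 2.12. APL4 read 3.60, 3.66 and 4.29 in the control, 3.51, 3.79 and 3.64 with SMX, 3.70, 3.69 and 3.95 with sucrose, and 4.03, 3.88 and 3.49 with both. The highest single value, 4.29, belongs to control replicate 3, and the lowest, 3.49, to replicate 3 of the combined treatment. Every pair of groups overlapped.

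The APL4 means were 3.85 ± 0.39, 3.65 ± 0.14, 3.78 ± 0.15 and 3.80 ± 0.28 in the control, SMX, sucrose and combined groups (SD, n = 3 each). No neighbours in that order differ beyond their spread. The combined treatment gave 0.97-fold of the control, with a 95% confidence interval of 0.70 to 1.34, and 1.02-fold of sucrose alone, with an interval of 0.74 to 1.40. The limma F test gave a Benjamini-Hochberg adjusted p = 0.904. In this fit the interval against the control does not reach the 1.60-fold of APL3. Values this near the lowest in the table can understate a change. With the spike labelling score described below as a covariate, the log2 difference from the control was 0.50 (SE 0.35). Whether the 2 genes differ in their response was not tested.

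The 2 genes did not vary together from array to array. Over the 12 arrays their values had a Pearson r of 0.066, and 0.0019 after the treatment means were subtracted. The APL3 and APL4 values of an array share its RNA and its normalization, so these correlations are descriptions only.

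Measures of RNA labelling moved with sucrose. A spike score was taken for each array as the log2 difference between the 3′ and 5′ probe sets of the Bacillus transcripts dap, lys and phe, which Affymetrix supplies to be added to RNA samples. It averaged 1.17 on the 6 arrays with sucrose and 5.53 on the 6 without (exact two-sided permutation test over 924 arrangements, p = 0.0022, the smallest they can give; 0.0022 after adjustment over 4 such measures). The actin, GAPDH and ubiquitin scores were also lower with sucrose, with differences of −2.83, −4.46 and −0.68, each with the same p in the exact permutation test.

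Between the combined and the sucrose arrays the spike score differed by 0.040, and between the combined and the control arrays by −3.98. The combined minus sucrose differences of the actin, GAPDH and ubiquitin scores were −0.40, −0.26 and −0.0067. Sucrose replicate 1 had an actin score of 8.01, against 6.29 and 5.83 on the other sucrose arrays and 6.30 to 6.34 on the combined arrays, and it also had the lowest APL3 value of its group. After treatment means were subtracted, the r of APL3 over the 12 arrays was −0.52 for actin and −0.17 for the spike. The APL3 difference between the combined and the sucrose arrays was 0.71, and 0.62 (SE 0.16) without sucrose replicate 1. Sucrose and control arrays were also far apart in score, and there the APL3 difference was −0.034. Adjusting for the spike score moved this difference to −0.16 (SE 0.31), and adjusting for actin moved it to −0.34 (SE 0.23). Neither passed the threshold. Sucrose and the scores change together in that contrast, so whether labelling moves APL3 was not tested by it. With the spike score as a covariate, APL3 in the combined treatment was 0.71 (SE 0.16) against sucrose and 0.55 (SE 0.30) against the control, and the latter was no longer called (limma, Benjamini-Hochberg adjusted p = 0.453). Against SMX it was 0.52 (SE 0.35; adjusted p = 0.561 by limma with Benjamini-Hochberg adjustment). With the actin score in its place the differences were 0.66, 0.32 and 0.26 against sucrose, control and SMX, and the last 2 were no longer called (adjusted p = 0.722 and 0.832 by limma with Benjamini-Hochberg adjustment). For APL4 the r after subtracting treatment means was 0.56 for the spike and −0.051 for actin. With the spike score as a covariate, APL4 in the combined treatment was 0.50 (SE 0.35) against the control and 0.81 (SE 0.40) against SMX. With the actin score it was −0.095 (SE 0.40) and 0.099 (SE 0.44), and none of these was called. Because the score and sucrose nearly coincide, labelling and sucrose cannot be told apart in the contrasts between arrays with and without it.

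**Figure D3:**
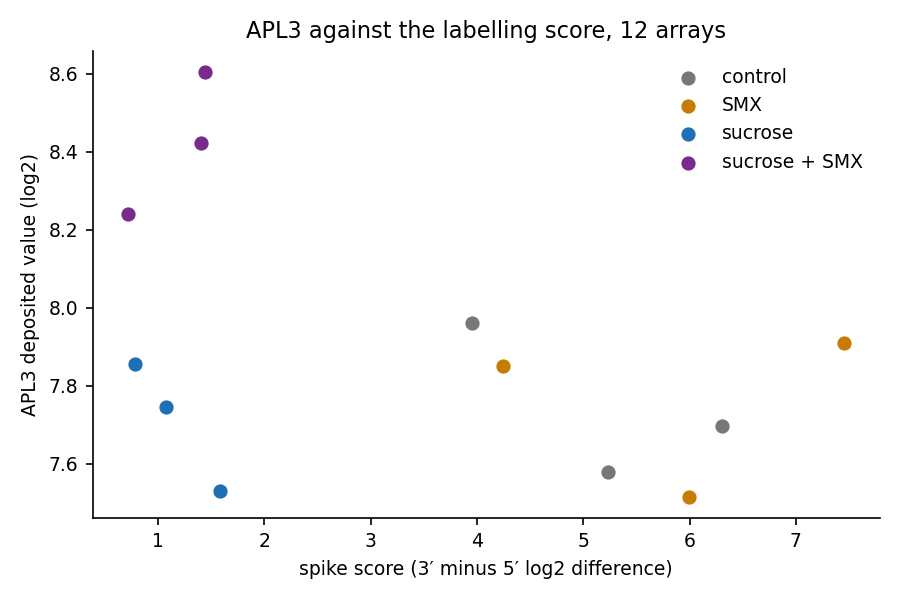
APL3 deposited log2 value against the spike score of the same array, 12 points coloured by treatment. The combined and the sucrose arrays share the low scores, from 0.72 to 1.58, and differ in APL3, while the control and SMX arrays lie at scores of 3.95 to 7.45 with APL3 values like those of sucrose alone.

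Other genes of starch and sucrose use were taken from lists by locus, and few could be matched to a probe set of 1 gene. Of the 6 AGPase subunit genes listed, only APL3 and APL4 were matched, so the small subunit APS1 and the large subunits APL1 and APL2 were not followed here. The lists gave 3 of 13 genes of starch synthesis, 3 of 23 of starch breakdown and 4 of 20 of sucrose cleavage and hexose phosphorylation. The lists for plastid import and trehalose phosphate gave none of 5 and none of 11.

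With both compounds against the control, 2 of these 10 genes rose and 2 fell, in a contrast where 27.2% of the array was called, and their median change was −0.010. With sucrose alone 2 rose and 3 fell, where the array-wide share was 23.5%, and the median was −0.064. When SMX was added to sucrose none of the 10 was called, and neither was APL3, in a contrast with calls for 0.189% of the array; the median of the 10 was 0.037. With SMX alone none was called, against 0.0835% array-wide. The median over all probe sets was 0 in each of these contrasts. So few genes were followed that these counts say nothing particular about the lists.

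In starch synthesis the called changes were downward, in contrasts where labelling and sucrose cannot be told apart. PTST, a protein that brings granule-bound starch synthase to the starch granule, read 6.19 ± 0.24 in the control and 4.79 ± 0.024 with both (SD, n = 3), lower by a log2 difference of −1.40 (SE 0.22; by limma, Benjamini-Hochberg adjusted p = 0.00239). It had fallen to a like extent with sucrose alone, by 1.21. SS5, a starch synthase-like protein, changed by −0.59 with both (SE 0.12; limma, Benjamini-Hochberg adjusted p = 0.00719) and by −0.63 with sucrose alone. SBE2.2, a branching enzyme, fell by 0.49 with sucrose alone (limma, Benjamini-Hochberg adjusted p = 0.0491) and was not called with both, at −0.18. For each of these genes the mean with both lay within 0.31 of that with sucrose alone.

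The called rises were in hexose phosphorylation, and there too labelling and sucrose cannot be told apart. AT2G31390, a fructokinase, read 11.90 ± 0.23 in the control and 13.36 ± 0.070 with both (SD, n = 3), a rise of 1.46 (SE 0.14; limma, Benjamini-Hochberg adjusted p = 0.000261), after 1.19 with sucrose alone. FRK3, the plastid fructokinase, rose by 1.28 with both (SE 0.33; limma, Benjamini-Hochberg adjusted p = 0.0219) and by 1.24 with sucrose alone. VI1, a vacuolar invertase, was at −0.0041 with both, and AT4G10260, a fructokinase family member, at −0.34, neither called. AT4G10260 read low, at 3.78 on control replicate 2 and from 2.81 to 2.97 on all other arrays. In starch breakdown PWD, which phosphorylates glucans, was at 0.34 and DPE1, which rearranges maltotriose, at 0.047, neither called. The alpha-amylase AMY1 lay at or near the lowest value, 2.12, in each group.

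Genes known to be induced when sugar is scarce were lower in both groups with sucrose. All 5 matched genes of 14 listed were called lower with both than in the control, where 27.2% of the array was called in either direction, and with sucrose alone, where 23.5% was. The list was chosen with earlier results of these data known, so this count is a description only. In both contrasts labelling and sucrose cannot be told apart. MCCA, a subunit of a leucine-degrading enzyme, fell from 11.17 ± 0.14 to 7.39 ± 0.096 (SD, n = 3; limma, Benjamini-Hochberg adjusted p = 0.000492). For AKINBETA1, part of the SnRK1 kinase that senses low energy, the log2 difference was −2.26. The differences were −1.82 for AT4G33150, which breaks down lysine, and −1.78 and −1.33 for IVD and MCCB, which act on leucine, and all were called. None of the 5 was called between both and sucrose, a contrast with calls for 0.189% of the array, and there MCCA was at −1.46 (SE 0.41; limma, Benjamini-Hochberg adjusted p = 0.439). In the sugar-induced list, 2 of 10 genes were matched. Beside APL3 this was DFR, an enzyme of anthocyanin synthesis, which lay at or near 2.12 in all groups.

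**Figure D4:**
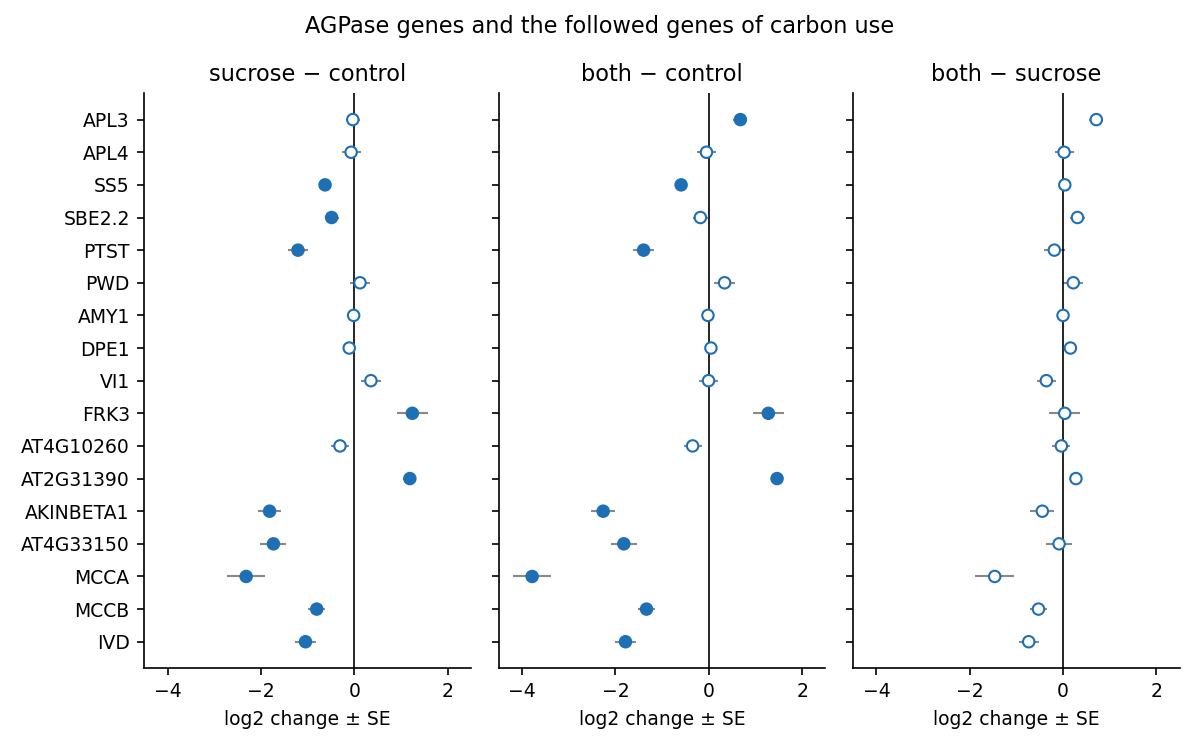
Log2 change ± SE of APL3, APL4, the 10 matched genes of starch and sucrose use and the 5 of sugar starvation for sucrose alone against control, both against control and both against sucrose; filled points are called at an adjusted p under 0.05. Most genes that moved had moved with sucrose alone, whereas APL3 was at −0.034 there and at 0.68 and 0.71 in the other panels.

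Markers of parts of the seedling could be checked for few genes, as 3 of 36 listed were matched and none for root cap, green tissue or shoot epidermis. The seed oil body gene OLEO3 was 8.99 ± 0.41 in the control and 8.86 ± 0.15 with both (SD, n = 3). The root hair expansins EXPA7 and EXPA18 read 3.54 and 4.32 in the control, 3.25 and 5.15 with SMX, 6.30 and 8.28 with sucrose, and 7.48 and 9.46 with both. These were the 2 matched of 7 root markers listed. They stood highest in the group where APL3 was high. Both were called higher with sucrose alone, as 23.5% of the array was called in either direction, and there the APL3 difference was −0.034. In that contrast labelling and sucrose cannot be told apart. The part of these expansins in the APL3 result was not tested.

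The probe sets most like APL3 were sought by Pearson r over the 12 arrays. The candidates were 5496 others of 1 gene, with a mean of at least 5 in their highest group and a range of at least 1. The highest were AT1G74010 (r = 0.90), AT5G46710 (0.90), AT1G19380 (0.89), ATPMEPCRB (0.89), a pectin methylesterase, and AT2G41730 (0.89). All 5 read highest in the combined treatment. AT5G46710, of the PLATZ zinc-binding family, had the profile nearest in size, at 5.19 in the control, 5.35 with SMX, 5.09 with sucrose and 5.81 with both. AT1G74010 moved further, with means of 4.09, 4.31, 3.74 and 6.21 in the same order, so it met the filter on the mean only through the combined treatment. The other groups of AT5G46710 and of AT1G19380 (6.98, 6.87 and 6.56) lay close together. These genes therefore met the filter on range only through the combined arrays. ATPMEPCRB read 7.82, 8.30, 7.96 and 10.03.

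Part of this likeness is the shared step in 1 treatment. After the treatment means were subtracted, r with APL3 was 0.48, 0.72, 0.51, 0.43 and 0.64 in the order named. The lowest correlations were those of AT1G49500 (r = −0.89), AT1G80180 (−0.85) and AT4G13580 (−0.83), which read lowest in the combined treatment. AT1G49500, for example, went from 11.58 in the control and 11.34 with sucrose to 10.70 with both. These genes were picked for their likeness, so their values carry no test.

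**Figure D5:**
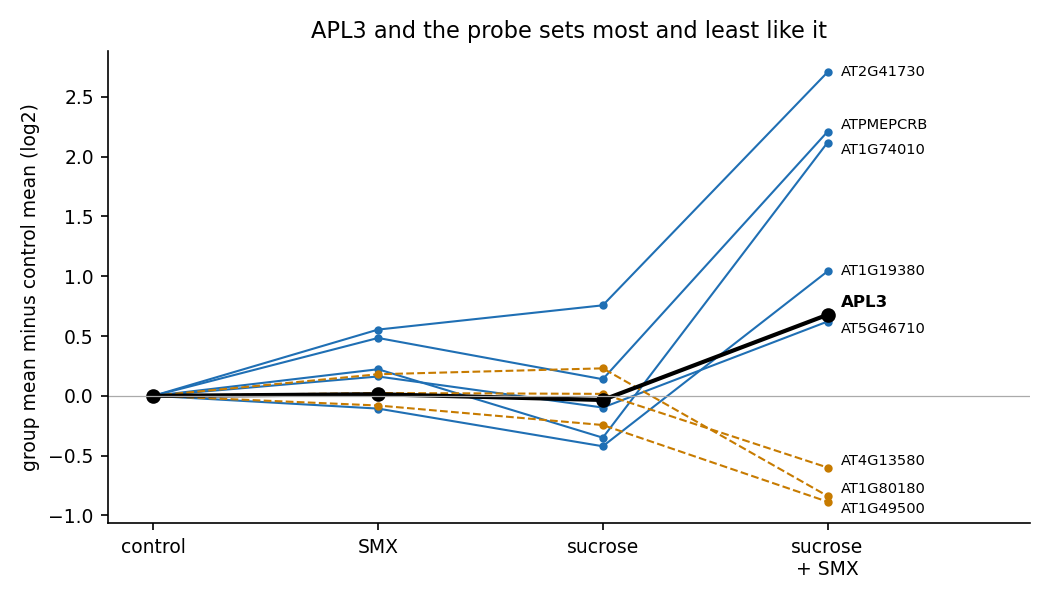
Group means minus the control mean (log2) across the 4 treatments for APL3 (black), the 5 probe sets with the highest r with it (blue, solid) and the 3 with the lowest (orange, dashed). The lines part in the combined treatment, where APL3 stands at 0.68 and AT2G41730 at 2.71.

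For APL4 the same search gave AT5G26760 (r = 0.91), AT5G58784 (0.85), AT1G19680 (0.79), AT2G46550 (0.76) and AT3G02820 (0.75). Here the likeness lay within treatments: r after subtracting the treatment means was 0.93, 0.90, 0.81, 0.82 and 0.78. The rank correlation over the 12 arrays (Spearman rho) was 0.88, 0.61, 0.49, 0.59 and 0.67. Each of these genes had its largest SD in the control, the group with the highest APL4 value. AT5G26760 had means from 7.43 to 7.55 across the 4 treatments, so it too had no step in any of them. The lowest were AT1G10380 (r = −0.81), AT1G20390 (−0.75) and AT2G16250 (−0.74). These genes too were picked for their likeness, to a gene that read low on every array, so their values carry no test. No probe set was named for both genes.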

How the data were processed

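Each of the 12 arrays was an Affymetrix array hybridised with biotin-labelled RNA, per the labels. The authors deposited log2 values, with a single value for each probe set on each array. GCRMA and limma stand in the submitters' processing notes, without versions or their order. GCRMA as usually run includes quantile normalization, which would hide a change common to most genes. The log2 scale was read from the range of the authors' values, 2.12 to 15.7. The arrays had medians of 5.63 to 5.84 and none duplicated another. Arrays give no counts, and 3 arrays per treatment limit the precision.

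The 64 control probe sets were left out of the tests, which left 22746. Gene names came from the platform annotation, updated through gene IDs to TAIR10.1: 13513 probe sets were paired with 1 gene, of which 13436 matched a current locus, 503 with several and 8730 with none. Binding of close paralogs was not tested.

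A single limma model with 4 groups (limma 3.58.1, R 4.3.3, lmFit then eBayes) was fitted to all 22746 probe sets on the 12 arrays, and was checked on simulated data. Tests were two-sided, p-values were adjusted by Benjamini-Hochberg over all probe sets of a contrast, and a call needed an adjusted p below 0.05. Contrasts share arrays, so they are not independent. Named genes were APL3, APL4, the matched AGPase genes, the called genes of the metabolic lists, and, by Pearson r over 12 arrays, the 5 most and 3 least like each; other matched genes of starch and sucrose use, seed and root markers were added by name for completeness. The members and lists were chosen with earlier results of these data known. Alternatives were other normalizations, filters, variance models, array weights, labelling covariates, a replicate block and leaving out arrays. Deviations of same-numbered arrays correlated above 0.1 in 6 of 18 pairs, with r from −0.36 to 0.22. This does not decide whether the numbers pair the arrays. The model left them unpaired, and the replicate block was run as an alternative.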

Additional observations from a re-analysis of the deposited data

How the results depend on the processing

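The direction of the APL3 differences of the combined treatment held in each alternative run. Against the control and against SMX they stayed called in 22 of 24 alternatives each, with all 12 single-array omissions among them. The calls ended with the spike score as a covariate (0.55 and 0.52) and with the actin score (0.32 and 0.26). Against sucrose, array weights brought the difference past the threshold (0.73, SE 0.12; adjusted p = 0.0363 by limma with Benjamini-Hochberg). The 23 other alternatives left it uncalled, at adjusted p up to 0.453. The F statistic across treatments was 7.08 and 8.06 with the spike and actin scores, neither called, and from 6.13 to 13.0 without single arrays. The interaction was called in 0 of 23 alternatives (0.50 to 0.79; limma, Benjamini-Hochberg adjusted p from 0.403 to 0.896). APL4 was called in none of its alternatives, and the filters on a mean of 4 or 6 removed it. With a replicate block, APL3 kept the same differences at an SE of 0.16, with limma and Benjamini-Hochberg adjusted p = 0.0234 against the control, 0.291 against sucrose and 0.0204 against SMX, so no call changed. The 10 genes of starch and sucrose use, the 5 of sugar starvation and DFR had 29 calls over 6 contrasts, and 3 or 2 with the spike or actin score. Counted over all probe sets, calls ranged from 287 to 8173 for both against control (6180 in the fit reported), from 138 to 8420 for both against SMX (7384), from 65 to 7568 for sucrose alone (5336), from 0 to 193 for both against sucrose (43), from 1 to 48 for the interaction (16) and from 0 to 70 for SMX alone (19). The lowest of the first 3 came with the spike score; these whole-array counts were added after the data were seen. The cause was not tested.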
